A study of Mus musculus with 7 samples.

Results

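Microglia are the resident macrophages of the brain. The 33 genes described here mark them or carry their surface receptors, complement, phagocytic and signalling machinery. They were chosen by symbol from a fixed list, and all 33 were found among the 43626 gene identifiers of the deposited table. All 33 also passed the filter on low values, so they are 33 of the 17670 genes tested. The samples are frozen prefrontal cortex from male mice of 8 weeks, strain C57BL/6J, sequenced as RNA, with no treatment named. There are 3 wild-type libraries (WT) and 4 labelled hDISC1AA/+. The study concerns phosphorylation of DISC1, a scaffold protein of neurons, and the labels give neither the construction of the altered allele nor the number of founder lines. Nothing in the labels says that every library came from a mouse of its own, so the p-values reflect only the scatter of these 7 samples, technical scatter included.

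Microglia depend on the receptor Csf1r for survival and on transcription factors such as PU.1 (Spi1), Irf8 and Sall1 for their identity. In the resting state they survey the cortex through purine and chemokine receptors. They take up synapses and debris through C1q, complement receptor 3 and Trem2 with its adaptor Tyrobp. When activated, microglia typically lose P2ry12 and Tmem119 and gain lysosomal and antigen-handling genes.

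A value called normalized count below is the deposited one, reads divided by 1 size factor per library. Values are given for WT replicates 1 to 3 in that order, then for hDISC1AA/+ replicate 1, an unnumbered hDISC1AA/+ library (its column has the ending of that group and a number found in no title) and replicates 3 and 4. Fold changes are hDISC1AA/+ minus WT on the log2(normalized count + 1) scale, from limma fitted to all genes. A gene is said to pass when its Benjamini-Hochberg adjusted p is under 0.05. In bulk tissue, fewer cells of a type and less RNA per cell cannot be told apart.

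The libraries held 33512557 to 36005116 reads assigned to genes, except WT replicate 1 with 63845254, whose title also has another form. A pair of libraries stood apart. WT replicate 1 had the highest level of the oligodendrocyte and astrocyte marker lists and the lowest of the endothelial list. hDISC1AA/+ replicate 1 had 1.94% mitochondrial reads against 5.14% to 6.94% in the other 6. Disc1 itself had normalized counts of 46.9, 72.0 and 109 in WT and 60.3, 81.0, 80.2 and 85.4 in hDISC1AA/+ (log2 fold change 0.08, 95% CI -0.59 to 0.75; limma adjusted p = 0.998; -0.22 on the log2 scale without WT replicate 1). These are reads of the whole mouse gene and do not separate the alleles. No gene passed the threshold (0 of 17670 by limma, with 431 at an unadjusted p under 0.05, and 0 by edgeR and by DESeq2 on the recovered reads, with 467, or 2.66%, and 604, or 2.13%, at an unadjusted p under 0.05).

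No microglial gene passed the test for a difference between the genotypes (0 of 33, 0%, against 0% of all genes tested), and none had an unadjusted p under 0.05, where 2.44% of all genes did. Of the 33 genes, 26 had a log2 fold change below 0 (78.8%), against 52.2% of all genes tested. The median log2 fold change was -0.10 for the microglial genes and -0.01 for all genes. For these 33 genes that balance depended on which WT libraries were included. Without WT replicate 1, 14 of the 33 were lower and 19 higher, the median was 0.04, and 51.7% of all genes were lower. Without WT replicate 2 it moved the other way, with 29 of the 33 lower and a median of -0.21. The 95% confidence interval lay within 2-fold in either direction for 32 of the 33, all but Gpr34, and within 1.5-fold for 22.

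**Figure D1:**
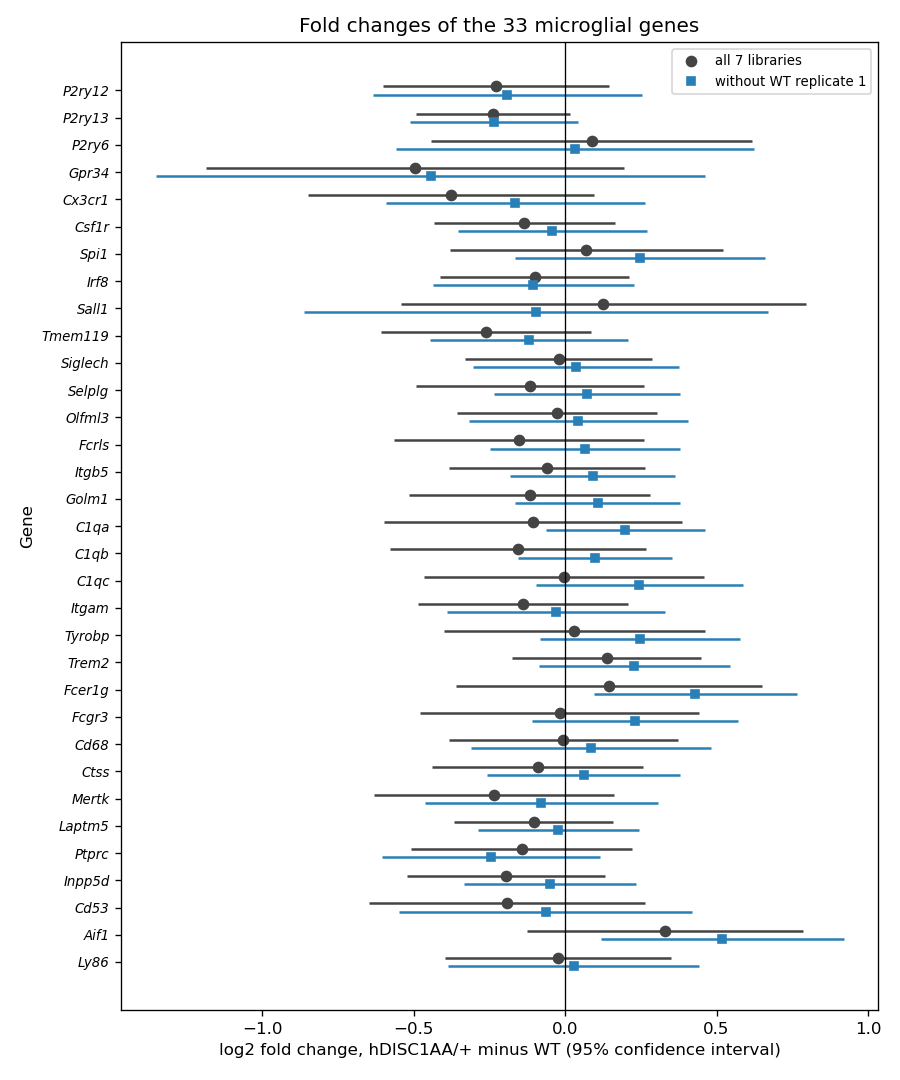
Log2 fold change (hDISC1AA/+ minus WT, x axis) of each of the 33 microglial genes (y axis) with its 95% confidence interval, from all 7 libraries (circles) and without WT replicate 1 (squares). With all 7 libraries every interval includes 0, and without WT replicate 1 the estimates of 13 genes move from below to above 0.

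The table sampled these genes well. Per kilobase of exon (the union of a gene's exons), the mean normalized count over the 7 libraries ran from 9.42 for Ptprc to 1343 for Ctss, with a median of 246. Ctss (cathepsin S, a lysosomal protease), C1qa at 1294 and C1qb at 1079.9 were the highest, followed by Csf1r at 627, C1qc at 625 and P2ry12 at 613. The smallest number of reads behind any value was 68, for P2ry6. All 33 genes had reads in all 7 libraries, so the microglial markers were present in this tissue.

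WT replicate 1 had the highest normalized count of the 7 libraries for 20 of the 33 genes (60.6%), against 28.2% of all genes tested. It lay above the mean of the other 6 libraries for 30 genes and below it for 3, Sall1, P2ry6 and Ptprc. The ratio of WT replicate 1 to that mean had a median of 1.30 over the 33 genes. It was lowest for Sall1 (0.639) and highest for C1qa (1.71). WT replicate 2 was the lowest library for 13 genes of the 33, against 12.4% of all genes. An hDISC1AA/+ library was the lowest for other genes: replicate 1 for 9, the unnumbered library for 6 and replicate 4 for 4. Of all genes tested, these 3 libraries were the lowest for 24.8%, 12.5% and 9.97%. The SD was larger in WT than in hDISC1AA/+ for 24 of the 33 genes, against 51.1% of all genes.

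**Figure D2:**
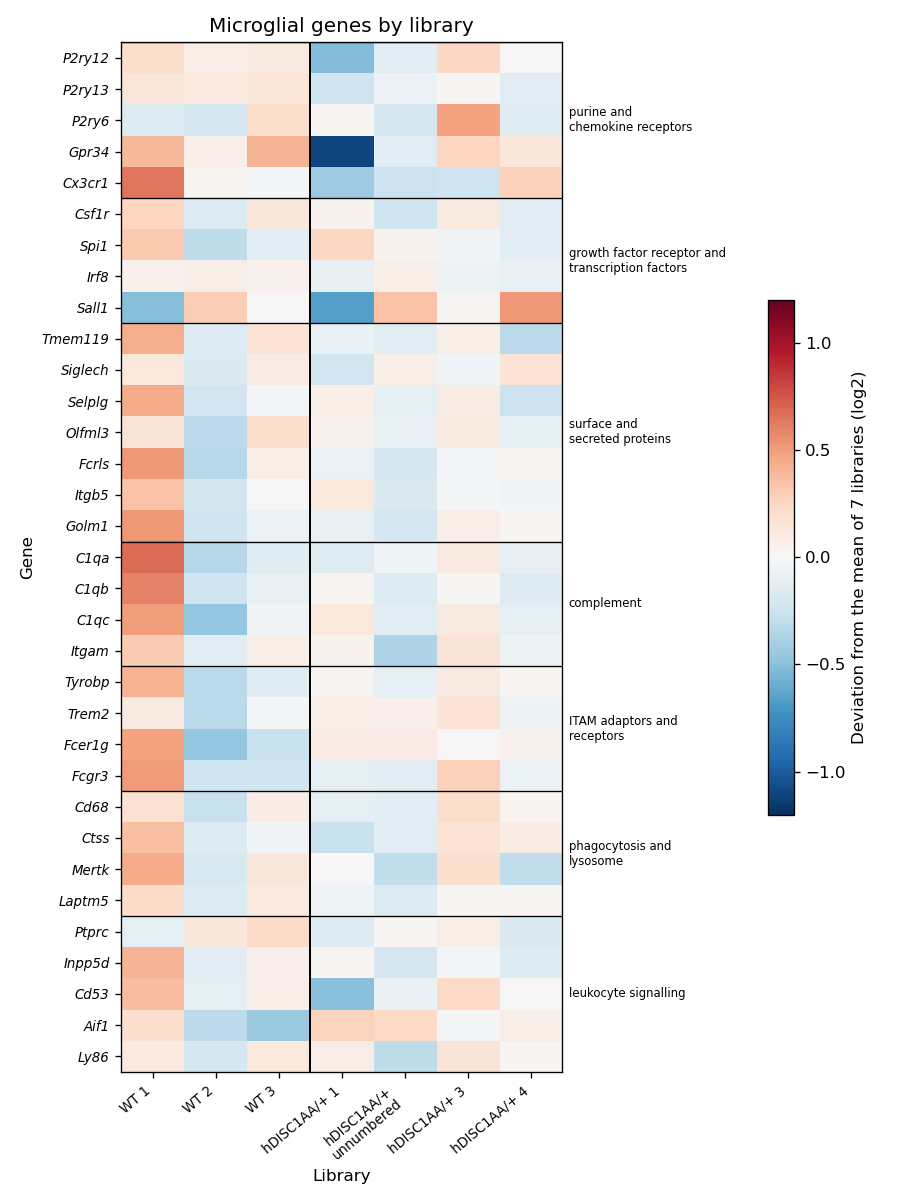
Deviation of log2(normalized count + 1) from the mean of the 7 libraries (colour) for each of the 33 microglial genes (rows, grouped by role) in each library (columns; the vertical line divides WT from hDISC1AA/+). WT replicate 1 is the highest library for 20 genes, against 28.2% of all genes tested. hDISC1AA/+ replicate 1 is the lowest for 9, a share close to the 24.8% of all genes tested.

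The mean deviation of the 33 genes from their 7-library mean was 0.29 in WT replicate 1, -0.17 in WT replicate 2 and 0.03 in WT replicate 3, on the log2 scale. Among the hDISC1AA/+ libraries, replicate 1 was at -0.11, the unnumbered library at -0.10, replicate 3 at 0.09 and replicate 4 at -0.03. All 4 hDISC1AA/+ libraries therefore lay inside the range that WT spanned. The summed normalized count of the 33 genes was 25960 to 36687 in WT and 26178 to 30505 in hDISC1AA/+.

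Markers of other cell types also stood apart in that library. In WT replicate 1 the mean deviation was 1.16 for 12 oligodendrocyte markers, 0.47 for 12 astrocyte markers, 0.18 for 12 neuron markers and -1.28 for 12 endothelial and mural markers. Summed normalized counts of the oligodendrocyte markers were 44662 to 146150 in WT and 42452 to 49673 in hDISC1AA/+, and those of the endothelial markers 5875 to 17925 and 13533 to 17420. Between the groups, 12 of 12 oligodendrocyte, 12 of 12 astrocyte and 10 of 12 neuron markers had a log2 fold change below 0 and 12 of 12 endothelial markers above it, and none passed. Without WT replicate 1 the median log2 fold change went from -0.58 to -0.10 for the oligodendrocyte, from -0.22 to -0.08 for the astrocyte and from 0.42 to -0.10 for the endothelial markers. No marker of these 4 lists was at 0 in any library. The part of this shift in the microglial values was not tested.

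**Figure D3:**
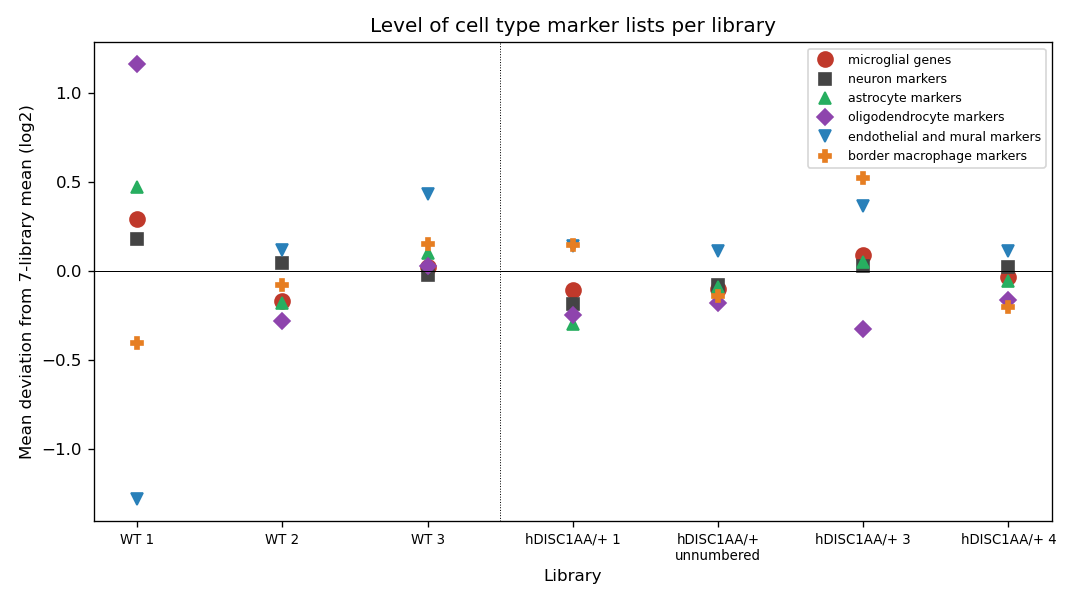
Mean deviation of each marker list from its 7-library mean (y axis, log2) in each library (x axis). In WT replicate 1 the oligodendrocyte list is at 1.16, the microglial genes at 0.29 and the endothelial list at -1.28, while the microglial genes of the other 6 libraries lie between -0.17 and 0.09.

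The purine and chemokine receptors had the lowest median log2 fold change of the 7 role groups, -0.24. P2ry12, P2ry13 and P2ry6 sense nucleotides, and Cx3cr1 binds the neuronal chemokine fractalkine. P2ry13, an ADP receptor (chromosome 3, 59207892 to 59210882), had normalized counts of 533, 525 and 534 in WT and 408, 461, 492 and 441 in hDISC1AA/+. It was the only one of the 33 genes whose groups did not overlap (3.03%; of all genes tested 5.04% did not overlap in either direction and 2.84% in the lower direction). The WT values lay close together and all 4 hDISC1AA/+ values were below them, with a log2 fold change of -0.24 (95% CI -0.49 to 0.02) and a limma adjusted p of 0.974.

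P2ry12, the ADP receptor that steers microglial processes towards injury (chromosome 3, 59216272 to 59262871), had 1777, 1628 and 1656 in WT and 1076, 1412, 1835 and 1536 in hDISC1AA/+. Here hDISC1AA/+ replicate 1 was the lowest library and hDISC1AA/+ replicate 3 the highest, so the groups overlapped (log2 fold change -0.23, 95% CI -0.60 to 0.14). Gpr34, a lysophosphatidylserine receptor, had 614, 489 and 622 in WT and 218, 427, 561 and 515 in hDISC1AA/+. Its fold change was the lowest of the 33 (log2 -0.50, 95% CI -1.19 to 0.20), and hDISC1AA/+ replicate 1 stood far below the rest. Without both WT replicate 1 and hDISC1AA/+ replicate 1 the log2 fold change of Gpr34 was -0.15 and that of P2ry12 -0.05, while that of P2ry13 was -0.19.

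Cx3cr1 had 2379.9, 1557 and 1499.5 in WT and 1131, 1274, 1295 and 1851 in hDISC1AA/+ (log2 fold change -0.38, 95% CI -0.85 to 0.09). WT replicate 1 was high, and hDISC1AA/+ replicate 4 lay above both other WT libraries; without WT replicate 1 the log2 fold change was -0.16. P2ry6, the UDP receptor linked to phagocytosis, ranged from 73.7 to 120.2 over the 7 libraries (log2 fold change 0.09).

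P2ry12 and P2ry13 are neighbours that lie inside Med12l, a gene on the opposite strand, and Gpr34 lies inside Cask. The sources used here do not state that reads were counted by strand. Exons of Med12l cover 0.353% of the exon length of P2ry12. No exon of Med12l overlaps P2ry13, and none of Cask overlaps Gpr34.

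**Figure D4:**
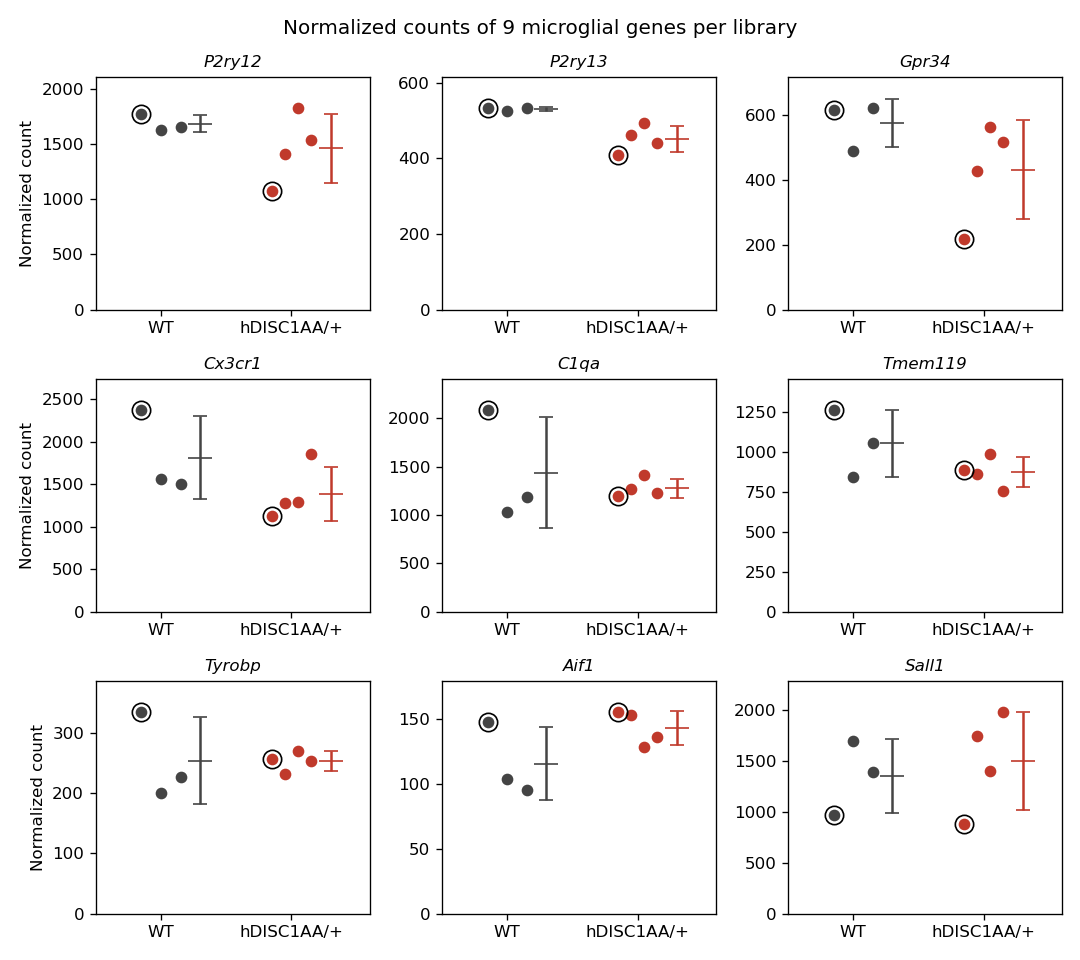
Normalized counts (y axis, from 0) of 9 microglial genes in the 3 WT and 4 hDISC1AA/+ libraries (points), with the mean and SD of each group (bars); ringed points are WT replicate 1 and hDISC1AA/+ replicate 1. P2ry13 is the only one of the 9 genes with no overlap between the groups, and WT replicate 1 is the highest point for Cx3cr1, C1qa, Tmem119 and Tyrobp.

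The growth factor receptor and the 3 lineage transcription factors had 2 log2 fold changes below 0 and 2 above, and none passed. Csf1r, the receptor for CSF1 and IL-34, had a mean of 3820.0 ± 564 in WT against 3468 ± 384 in hDISC1AA/+ (SD, n = 3 and 4; log2 fold change -0.14, 95% CI -0.43 to 0.16; -0.043 without WT replicate 1). An opposite-strand gene, Hmgxb3, overlaps 15.1% of the exon length of Csf1r. Irf8 varied least of the 33, with 199.6, 203 and 201 in WT and 181, 203, 185 and 181 in hDISC1AA/+ (log2 fold change -0.10, 95% CI -0.41 to 0.21). Spi1, which encodes PU.1, had 175, 113 and 129 in WT and 167, 144, 136 and 129 in hDISC1AA/+ (log2 fold change 0.07, 95% CI -0.38 to 0.52), with WT replicate 1 again the highest.

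Sall1, a repressor that maintains the microglial state, had 967, 1695 and 1385 in WT and 874, 1746, 1397 and 1981 in hDISC1AA/+. WT replicate 1 and hDISC1AA/+ replicate 1 were both low, and hDISC1AA/+ replicate 4 was the highest. Its log2 fold change was 0.13 (95% CI -0.54 to 0.79), and -0.10 without WT replicate 1. Whether the Sall1 reads came from microglia alone was not tested.

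All 7 surface and secreted proteins had a log2 fold change below 0, and 6 of them were above 0 without WT replicate 1. Tmem119, a membrane protein used to tell microglia from blood macrophages, had 1264, 842 and 1053 in WT and 887, 859.5, 982 and 754 in hDISC1AA/+. The groups overlapped, since WT replicate 2 lay below 3 of the 4 hDISC1AA/+ libraries (log2 fold change -0.26, 95% CI -0.61 to 0.09; -0.12 without WT replicate 1). Selplg, the P-selectin ligand, had 1109.7 ± 271 in WT against 1009.6 ± 114 in hDISC1AA/+ (log2 fold change -0.12). Fcrls, an Fc receptor-like scavenger receptor of mouse microglia, had 1013 ± 299.9 and 887 ± 60.8 (log2 fold change -0.15).

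The remaining log2 fold changes of this group were -0.02 for the lectin Siglech, -0.03 for the secreted Olfml3, -0.06 for the integrin subunit Itgb5 and -0.12 for the Golgi protein Golm1. Both Itgb5 and Golm1 are expressed in other cells too, and exons of Naa35 on the opposite strand overlap 29.3% of the exon length of Golm1.

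All 4 complement genes had a log2 fold change below 0, none passed, and WT replicate 1 was the highest library for each of them. C1q, which starts the classical pathway and tags synapses for removal, is built of A, B and C chains from 3 neighbouring genes on chromosome 4 (C1qb, 136880129 to 136886187; C1qc, 136889804 to 136893065; C1qa, 136895917 to 136898803, all on the minus strand of GRCm38). C1qa had 2090.4, 1035 and 1190.0 normalized counts in WT and 1191, 1269, 1415 and 1229 in hDISC1AA/+. C1qb had 1741, 980.0 and 1084 in WT against 1181, 1029, 1169 and 1040.1, and C1qc had 1679.6, 859 and 1161 in WT against 1294, 1083, 1278 and 1097. For all 3 chains WT replicate 1 was the highest and WT replicate 2 the lowest of the 7 libraries, with hDISC1AA/+ between them.

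The log2 fold changes were -0.11 (95% CI -0.60 to 0.39) for C1qa, -0.16 (95% CI -0.58 to 0.27) for C1qb and -0.00 (95% CI -0.47 to 0.46) for C1qc. Without WT replicate 1 they were 0.20, 0.10 and 0.25, of the opposite sign. The ratio of C1qa to C1qb normalized counts was 1.01 to 1.23 over the libraries, and that of C1qc to C1qb 0.876 to 1.09. Outside WT replicate 1, C1qb itself ran only from 980 to 1181. Other pairs ran from 1.04 to 1.33 (Tyrobp to Fcer1g), 0.527 to 0.740 (Tyrobp to Trem2), 2.63 to 3.73 (P2ry12 to P2ry13) and 0.491 to 0.825 (Tmem119 to P2ry12). Shared control of the chains was not tested. Itgam, the CD11b chain of complement receptor 3, had 986 ± 147 in WT against 897 ± 134 in hDISC1AA/+ (log2 fold change -0.14; -0.029 without WT replicate 1). The gene model Gm49368 on the same strand overlaps 68.7% of the exon length of Itgam, so its count is uncertain.

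The sequence before the RefSeq gene start (GRCm38.p6, minus strand of chromosome 4) is shown for the C1q chains that the sequence table holds. For C1qb these are 250 bases, chr4:136886201-136886450. For C1qc the RefSeq start lies inside the GENCODE gene given above, so 151 bases of the 250 fall within that gene and only the other 99 are printed, chr4:136893066-136893164. Capitals mark a match to GAGGAAGT, the core of PU.1 sites, on either strand.
C1qb: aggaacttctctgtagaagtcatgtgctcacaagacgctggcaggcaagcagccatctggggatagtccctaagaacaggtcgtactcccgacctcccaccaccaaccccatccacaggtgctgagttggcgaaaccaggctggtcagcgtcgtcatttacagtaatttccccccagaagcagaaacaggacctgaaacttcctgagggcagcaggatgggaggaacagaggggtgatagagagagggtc
C1qc: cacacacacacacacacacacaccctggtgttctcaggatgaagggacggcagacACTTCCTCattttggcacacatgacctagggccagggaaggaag
C1qc holds 1 match, which reads ACTTCCTC on the gene's strand, and C1qb holds none. In the whole windows of 250 bases, 2 of the 25 microglial genes in the table had a match to GAGGAAGT (8%; C1qc and Inpp5d), against 2.79% of 27025 genes. The ETS-IRF composite element, searched on both strands, matched none of the 25, against 2.68% of genes.

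Among the ITAM adaptors and receptors, which pass signals through tyrosine motifs, 3 of 4 genes had a log2 fold change above 0, and none passed. Tyrobp encodes DAP12, the adaptor of Trem2, and had 336, 199.7 and 227 in WT and 257, 231, 271 and 254 in hDISC1AA/+ (log2 fold change 0.03, 95% CI -0.40 to 0.46). Trem2, a lipid-sensing receptor, had 454, 336 and 417 in WT against 445, 439, 471 and 403 (log2 fold change 0.14, 95% CI -0.18 to 0.45). Fcer1g, the common gamma chain of Fc receptors, had 292, 151 and 172 in WT against 223, 222, 208 and 216 (log2 fold change 0.14, 95% CI -0.36 to 0.65). In Tyrobp and Fcer1g the WT libraries bracketed all 4 hDISC1AA/+ values.

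Without WT replicate 1 the log2 fold changes of these 3 genes were 0.25, 0.23 and 0.43. Fcgr3, a low-affinity IgG receptor with close paralogs among which the counting could divide reads, had 620.0, 369 and 371 in WT against 404, 401, 528 and 415 (log2 fold change -0.02).

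The 4 genes of phagocytosis and the lysosome had log2 fold changes between -0.24 and -0.01. Mertk, a receptor for apoptotic cells that astrocytes also carry, had 2750.2, 1775 and 2215 in WT and 2012, 1641, 2299.6 and 1638 in hDISC1AA/+ (log2 fold change -0.24, 95% CI -0.63 to 0.16; -0.079 without WT replicate 1). Ctss had 1895 ± 369.7 in WT against 1769.6 ± 241 in hDISC1AA/+ (log2 fold change -0.09, 95% CI -0.44 to 0.26). Cd68, a lysosomal protein that accumulates in phagocytic cells, had 263, 192 and 246 in WT against 215, 211, 268 and 235, nearly equal in mean (log2 fold change -0.01, 95% CI -0.38 to 0.37). Laptm5, a lysosomal membrane protein of leukocytes, had a log2 fold change of -0.10, and of -0.023 without WT replicate 1.

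Among the 5 genes of leukocyte signalling, Aif1 had the highest fold change of all 33. Aif1 encodes IBA1, the actin-binding protein by which microglia are usually stained, and had 148, 104 and 94.8 in WT and 155, 153, 128 and 136 in hDISC1AA/+. WT replicate 1 lay among the hDISC1AA/+ values and the other WT libraries below all of them (log2 fold change 0.33, 95% CI -0.13 to 0.79; limma adjusted p = 0.974; 0.52 without WT replicate 1). Ptprc, which encodes CD45, had 158, 189 and 202 in WT against 154, 173, 179.8 and 152 (log2 fold change -0.14, 95% CI -0.51 to 0.22).

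Inpp5d, which encodes the phosphatase SHIP1 that restrains ITAM signals, had 678 ± 130.4 in WT against 586 ± 45.5 in hDISC1AA/+ (log2 fold change -0.20, 95% CI -0.52 to 0.13; -0.050 without WT replicate 1). Cd53, a tetraspanin, had 352, 251 and 289 in WT against 193, 258, 323 and 274 (log2 fold change -0.19; -0.053 without hDISC1AA/+ replicate 1 and -0.064 without WT replicate 1), with hDISC1AA/+ replicate 1 the lowest. Ly86, the MD-1 partner of a Toll-like receptor homologue, had a log2 fold change of -0.02.

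Without WT replicate 1, 2 of the 33 genes had an unadjusted p under 0.05, Aif1 (0.0175) and Fcer1g (0.018), both higher in hDISC1AA/+, against 1.57% of all genes, and both had a limma adjusted p of 0.9996. The groups then did not overlap for 8 genes, against 12.1% of all genes. Of the 8, Spi1, C1qa, Tyrobp, Fcer1g, Fcgr3 and Aif1 were higher and P2ry13 and Ptprc lower. With 2 WT libraries left, these values rest on WT replicates 2 and 3 alone.

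hDISC1AA/+ replicate 1 was low for the microglial transcripts of low GC content. Over all 33 genes it was the lowest library for 9, a share close to the 24.8% of all genes. On the log2 scale it lay -1.29 from the mean of the other 6 libraries for Gpr34, -0.77 for Sall1, -0.60 for P2ry12 and -0.58 for Cd53. Gpr34, P2ry12 and Cd53 have 37.1%, 38.6% and 39.95% GC in the longest transcript, among the lowest of the 33 genes, while Sall1 has 51.6%.

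The 7 genes with the lowest GC content (46.0% or less) were Gpr34, P2ry12, Ptprc, Cd53, P2ry13, Siglech and Ctss. In hDISC1AA/+ replicate 1 all 7 lay below the mean of the other 6 libraries, with a median deviation of -0.31. Of the 26 others (47.9% or more), 11 lay below that mean, and the median deviation of the 26 was 0.04. This division was made after the values were seen and has no test. Across the 33 genes the deviation in hDISC1AA/+ replicate 1 and the GC content had a Pearson r of 0.64 (Spearman 0.52), and across 17543 genes r was 0.52; the points share 1 library and are not replicates. In WT replicate 1 the same r was 0.18 over the 33 genes and -0.03 over all genes. It was -0.52 and -0.30 in WT replicate 2, and -0.38 and -0.07 in WT replicate 3. For the unnumbered library it was 0.0006 and -0.11, for hDISC1AA/+ replicate 3 -0.24 and -0.11, and for replicate 4 -0.24 and -0.25. In these 6 libraries the mean compared against includes hDISC1AA/+ replicate 1.

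**Figure D5:**
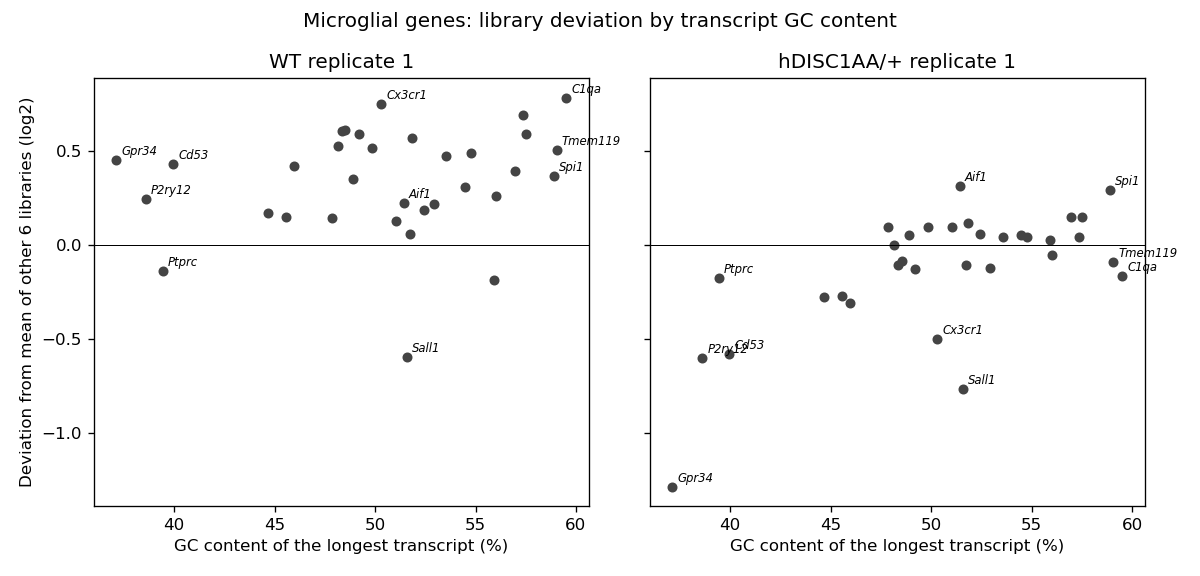
Deviation from the mean of the other 6 libraries (y axis, log2) against GC content of the longest transcript (x axis, percent) for the 33 microglial genes in WT replicate 1 (left) and hDISC1AA/+ replicate 1 (right). On the right Gpr34 lies at -1.29 and P2ry12 at -0.60, and C1qa, the gene of highest GC content, at -0.17; on the left 30 of the 33 genes lie above 0.

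The first 120 coding bases of 4 members (GENCODE M21) are shown as examples of low and high GC content, with the start codon in capitals. Over the whole coding sequence GC was 38.1% in Gpr34, 43.9% in P2ry12, 58.8% in C1qa and 62.4% in Tmem119. Over the bases shown it was 41.7%, 55.8%, 59.2% and 64.2%, so the start of P2ry12 was closer to C1qa than its whole coding sequence was.
Gpr34: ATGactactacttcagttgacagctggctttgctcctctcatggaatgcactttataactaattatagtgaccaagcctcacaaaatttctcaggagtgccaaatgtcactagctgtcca
P2ry12: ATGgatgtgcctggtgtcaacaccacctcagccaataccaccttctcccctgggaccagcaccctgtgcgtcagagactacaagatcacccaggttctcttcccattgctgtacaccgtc
C1qa: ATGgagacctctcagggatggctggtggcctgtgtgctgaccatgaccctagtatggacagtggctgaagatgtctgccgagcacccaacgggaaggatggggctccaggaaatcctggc
Tmem119: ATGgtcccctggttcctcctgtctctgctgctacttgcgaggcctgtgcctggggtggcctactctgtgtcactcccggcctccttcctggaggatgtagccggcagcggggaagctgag
Gpr34 in hDISC1AA/+ replicate 1 was at 0.405 of the mean of the other 6 libraries, P2ry12 at 0.656, C1qa at 0.869 and Tmem119 at 0.925.

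Other genes of microglia and of their pathways were taken from lists of known function. Of 27 further microglial genes 19 were lower and 8 higher (median log2 fold change -0.06), and none passed. Of these 27, 19 were lower too without WT replicate 1 (median -0.06), and 17 without both WT replicate 1 and hDISC1AA/+ replicate 1. The smallest p was that of Tgfbr1, the receptor for the TGF-beta that keeps microglia in the resting state, with 1583, 1146 and 1327 in WT and 698, 1002, 1165 and 1090.5 in hDISC1AA/+ (log2 fold change -0.46, 95% CI -0.89 to -0.04; limma adjusted p = 0.974). It was lowest in hDISC1AA/+ replicate 1, and the log2 fold change was -0.19 without both WT replicate 1 and hDISC1AA/+ replicate 1. The checkpoint receptor Havcr2 (log2 fold change -0.45; -0.21 without WT replicate 1) and Entpd1, the ectonucleotidase CD39 (-0.18; -0.094 without WT replicate 2), followed. In Runx1, named after its values were seen, the groups did not overlap (log2 fold change -0.30). It was the only such gene of the 27, and of all genes tested 5.04% did not overlap in either direction and 2.84% in the lower direction.

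Of the 12 genes of ITAM signalling downstream of Tyrobp 3 were lower and 9 higher (median log2 fold change 0.10), and none passed. The smallest p were those of the adaptor Lat2 (log2 fold change 0.30) and the inhibitory lectin Cd33 (0.20). Of 11 signals that microglia receive, 8 were lower (median -0.00). Cd47, the signal against phagocytosis, had the smallest p and was the only gene of the 11 without overlap, against 5.04% of all genes tested. It had 4058, 3954 and 3874 in WT and 3013, 3491, 3591 and 3767 in hDISC1AA/+ (log2 fold change -0.20, 95% CI -0.42 to 0.03, limma adjusted p = 0.974). The next were Nrros, which anchors latent TGF-beta on microglia (-0.26; -0.064 without WT replicate 1), and Tgfb2 (-0.14; -0.064 without WT replicate 3).

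Of 11 measured genes of the classical complement pathway beyond C1q, 7 were higher and 4 lower (median log2 fold change 0.14), and none passed. C4b, which C1 cleaves after C1q binds, had 391.5, 401.6 and 673.5 in WT and 473, 858, 692 and 793 in hDISC1AA/+ (log2 fold change 0.54, 95% CI -0.03 to 1.11). C1ra, a protease of the C1 complex, had 32.7, 42.6 and 39.2 in WT against 79.3, 42.6, 59.6 and 52.5 (log2 fold change 0.57, 95% CI -0.03 to 1.18; limma adjusted p = 0.974). Its highest WT value, 42.5595, was in effect tied with its lowest hDISC1AA/+ value, 42.5602. C1ra was the only gene of the 11 without overlap. Of all genes tested 5.04% did not overlap in either direction and 2.2% in the higher direction. C3 did not pass the filter on low values, with 16.9 normalized counts or fewer in each library.

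Genes that mark disease-associated microglia were evenly divided, with 8 of 17 measured lower and 9 higher (median log2 fold change 0.01), and none passed. Without WT replicate 1, 2 of the 17 were lower and the median was 0.13. Whether the reads of this list came from microglia alone was not tested. Cd52 had 14.8, 16.4 and 37.1 in WT and 39.1, 37.4, 33.6 and 43.2 in hDISC1AA/+ (log2 fold change 0.84, 95% CI 0.06 to 1.63), and the chemokine gene Ccl6 had 34.0, 34.9 and 46.9 in WT against 73.0, 43.6, 65.0 and 58.6 (log2 fold change 0.62). Both were low in count, and both had a limma adjusted p of 0.974. Itgax, which encodes CD11c, had at most 20.1 (log2 fold change 0.63), and Cst7 and Clec7a did not pass the filter.

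Of the inflammatory list, 9 of 18 cytokine and sensor genes passed the filter, 6 lower and 3 higher (median log2 fold change -0.10), and none passed. Il18, a cytokine of the interleukin-1 family, had 384, 371 and 448 in WT and 259, 442, 411 and 409 in hDISC1AA/+ (log2 fold change -0.10), and is named after its values were seen. Il1b had 2.18 to 14.8 normalized counts, Tnf 0.00 to 4.36 and Il6 0.00 to 3.11, so changes in these were not detectable at this depth. Of those measured, Nos2 had 2.57, 15.3 and 24.0 in WT against 18.0, 23.9, 22.7 and 31.9 (log2 fold change 1.12; 0.29 without WT replicate 1). The log2 fold change was -0.56 for Il1a and -0.35 for the endotoxin receptor Tlr4, which was at -0.0040 without hDISC1AA/+ replicate 1.

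Macrophages of the brain borders share several of the 33 genes. Their 11 markers summed to 1273 to 1958 normalized counts in WT and 1404 to 2214 in hDISC1AA/+, with 3 lower and 8 higher and none passed (median log2 fold change 0.10; -0.07 without WT replicate 1). The defining markers Mrc1 (171 to 484), Cd163 (126 to 217) and Lyve1 (30.9 to 134) were present in every library, and WT replicate 1 was lowest for 7 of the 11, against 24.8% of all genes tested and for none of the 33 microglial genes. Cbr2 had a log2 fold change of 0.66 (0.37 without hDISC1AA/+ replicate 3), Pf4 0.59 (0.36 without WT replicate 1) and Ms4a7 0.36 (0.081 without WT replicate 3). The 17 markers of blood leukocytes, 8 of them measured and 8 at 0 in some library, summed over the measured genes to 70.6 to 239 in WT and 60.7 to 878 in hDISC1AA/+, with replicate 1 the highest. The part of these cells in the values of shared genes such as Ptprc, Itgam and Fcer1g was not tested.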

How the data were processed

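RNA sequencing of mouse prefrontal cortex (3 WT and 4 hDISC1AA/+ libraries) was aligned to mm10; the tools in the submitters' processing notes are DESeq2 1.26.0, HTSeq 0.6.1, HISAT2 2.1.0 and Trimmomatic 0.39, with no role given. The deposited table holds a signal per gene, which is the count over a size factor of the library. In all 7 columns 100% of the values came out as whole reads (tolerance 0.01), and 33512557 to 63845254 reads per library were recovered. Strand use in the counting is not given in the sources used here.

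Symbols, coordinates and exon lengths were taken from GENCODE M21 (GRCm38), which matched 42545 of 43626 identifiers; promoters are from RefSeq GRCm38.p6, which held 25 of the 33 genes. Genes with a normalized count of 10 or more in at least 3 libraries (17670) were tested with limma (trend and robust) on log2(normalized count + 1), hDISC1AA/+ against WT, adjusted by Benjamini-Hochberg over all of them. Alternatives were a pseudocount of 5, no filter, TMM scaling, edgeR and DESeq2 on the recovered reads, and each library left out. Leaving out WT replicate 1 and hDISC1AA/+ replicate 1 together, and repeating the omissions for the other lists, Disc1 and the other named genes, was in part added after the values were seen. In simulated data with the same groups, 17403 genes were run and 200 of them changed. There limma called 16.4% of genes changed 1.5-fold, 70.1% of those changed 2-fold and 95.5% of those changed 4-fold. It also called 14 unchanged genes. The changed genes were drawn from those of higher mean count, so these rates do not cover genes of low count. No simulated library was made to stand apart.

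The members, their roles and all other gene lists were chosen with earlier results of these data known. The text names every member, Disc1 and, of the lists of other microglial and immune genes, up to 3 measured genes with the smallest unadjusted p, with exceptions stated and 1 gene not reported here; of the neuron, astrocyte, oligodendrocyte, endothelial and blood leukocyte lists it gives counts. Replicate numbers follow accession order and pair nothing. A column whose name matches no title except by its genotype ending was used as a library of that genotype without a number.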

Additional observations from a re-analysis of the deposited data

Results flagged for a closer look

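Among the 53 genes named that were checked for a single hDISC1AA/+ library far from the other 3, 2 were found, and chance alone gives about 1 in 20. Fcgr3 had a normalized count of 528 in hDISC1AA/+ replicate 3, where the other hDISC1AA/+ libraries had 401 to 415 (gap over range 0.89, past Dixon's 95% critical value for 4 samples). Tlr4 had 34.9 in hDISC1AA/+ replicate 1, where the others had 88.5 to 96.4 (gap over range 0.871). The WT group of 3 libraries was too small for this check.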

How the results depend on the processing

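No gene passed the threshold under any alternative, and the smallest adjusted p of a microglial gene under any of them was 0.845. The number of the 33 genes with a log2 fold change below 0 was 26 with all libraries and 13 without both WT replicate 1 and hDISC1AA/+ replicate 1. With each library left out in turn it ran from 14 (without WT replicate 1) to 29 (without WT replicate 2). The number whose groups did not overlap was 1 with all libraries and 8 without both (24.2%, against 19.0% of all genes). With each library left out it was 1 to 8: 8 without WT replicate 1 (12.1% of all genes) and without WT replicate 2 (13.6%), 1 without WT replicate 3 (12.4%) or hDISC1AA/+ replicate 1 (9.17%), and 2 without each of the other 3 (6.93% to 9.95%). With each library left out, the median log2 fold change ran from -0.21 (without WT replicate 2) to 0.04 (without WT replicate 1). The cause of these changes was not tested, and fewer samples make non-overlap more frequent. Of the 33 genes, 19 changed sign under some alternative and 14 under none.

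Without both libraries the log2 fold change turned positive for Siglech (0.11), Selplg (0.03), Olfml3 (0.02), Fcrls (0.069), Itgb5 (0.04), Golm1 (0.12), C1qa (0.23), C1qb (0.06), C1qc (0.20), Fcgr3 (0.26), Cd68 (0.12), Ctss (0.14) and Cd53 (0.075), and negative for Disc1 (-0.11). Tyrobp was at -0.0026 by edgeR and -0.011 by DESeq2.

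With each library left out in turn the log2 fold change ranged from -0.062 to 0.22 for P2ry6, -0.063 to 0.25 for Spi1, -0.10 to 0.36 for Sall1, -0.12 to 0.05 for Siglech, -0.26 to 0.072 for Selplg, -0.19 to 0.064 for Olfml3, -0.36 to 0.07 for Fcrls, -0.19 to 0.091 for Itgb5 and -0.27 to 0.11 for Golm1. It ranged from -0.31 to 0.20 for C1qa, -0.32 to 0.10 for C1qb, -0.24 to 0.25 for C1qc, -0.13 to 0.25 for Tyrobp, -0.046 to 0.43 for Fcer1g, -0.14 to 0.23 for Fcgr3, -0.14 to 0.09 for Cd68, -0.20 to 0.06 for Ctss, -0.14 to 0.074 for Ly86 and -0.22 to 0.38 for Disc1. Among genes that kept their sign it ranged from -0.35 to -0.089 for P2ry12, -0.65 to -0.20 for Gpr34, -0.28 to -0.19 for P2ry13, -0.26 to -0.043 for Csf1r, -0.39 to -0.079 for Mertk, -0.32 to -0.050 for Inpp5d, 0.013 to 0.23 for Trem2, -0.24 to -0.069 for Ptprc and 0.20 to 0.52 for Aif1.

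The median of the ITAM signalling list ranged from 0.022 to 0.13, that of the signals received by microglia from -0.094 to -0.017 (-0.10 without both libraries), that of the disease-associated genes from -0.15 to 0.13 (0.14 without both) and that of the oligodendrocyte markers from -0.87 to -0.10. No paired analysis was possible because the labels carry no replicate numbers. With 3 and 4 libraries, changes of 1.5-fold or less would mostly be missed. In the simulated data limma called 16.4% of genes changed 1.5-fold and 70.1% of those changed 2-fold.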
